A study of Mus musculus with 6 samples.

Results

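The genes described here were 10 marker genes of Kupffer cells, the macrophages that reside in the liver: Clec4f, Vsig4, Timd4, Marco, Cd5l, Adgre1, C1qa, C1qb, C1qc and Cd163. They were chosen by name, without a threshold on any measured value, from the 17975 genes in the deposited table, and all 10 passed the filter on low counts. RNA was sequenced from whole liver of 3 mice that lacked NEK7, a NIMA-related protein kinase, in hepatocytes (Hom) and of 3 control mice (WT), with 1 liver per mouse. The Hom mice carried both floxed alleles of NEK7 and the Cre transgene (NEK7 fl/fl-Alb-Cre(+)), in which the albumin promoter drives the recombinase in hepatocytes. In the breeding scheme the WT group holds mice with the floxed alleles or the Alb-Cre transgene alone, and the labels do not give which of these each WT liver was. Both parental lines were on a C57BL/6 background, and the study used mice of both sexes in its knock-out work. The sources read here do not tie an age or a sex to single livers. The comparison of Hom with WT livers asked how gene expression in the liver differed when hepatocytes lacked NEK7.

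Kupffer cells line the liver sinusoids and clear bacteria, ageing red blood cells, apoptotic cells and complement-coated particles from portal blood. Most of them are seeded before birth and maintain themselves, and monocytes from the blood can enter an emptied niche and take on Kupffer cell genes over time. CLEC4F, a C-type lectin, and TIM4, the product of Timd4, are used to recognise the resident cells, because newly arrived macrophages acquire TIM4 late. F4/80, the product of Adgre1, and the chains of the complement protein C1q are made by Kupffer cells and also by other macrophages.

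Nek7 (NCBI Gene 59125) was measured first, as a check of the labels. The estimated number of reads on it was 310, 439 and 387 for the Hom livers, replicates 1, 2 and 3, against 1127, 1077 and 1036 for WT. The 6 libraries had similar totals, from 19349418 to 19730236 estimated counts over all genes. Values for the 3 livers of a group follow the order of replicates 1, 2 and 3. Levels are given as CPM, the count of a gene scaled to a common library total, after TMM factors, which correct for library composition, and levels of different genes are compared as FPKM, which also divides by gene length. Differences were tested with the quasi-likelihood test of edgeR over 13805 genes, and a gene was called at a Benjamini-Hochberg adjusted p under 0.05. The p-values cover the spread between these 3 and 3 livers, and an exact permutation test of 3 against 3 cannot go below 0.1.

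WT replicate 1 stood apart from the other WT livers in these genes. It had the highest WT level of all 10 markers, from 1.72 to 2.85 times the mean of WT replicates 2 and 3, and also of all 14 pan-macrophage genes and all 7 neutrophil genes examined. The 7 neutrophil markers summed to 97.1 CPM in this liver, against 9.30 and 16.1 CPM in WT replicates 2 and 3 and 25.9 to 61.9 CPM in the Hom livers, and one of them, Retnlg, was at 0 in WT replicate 2. Hom replicate 1 stood apart in another way, with no count of the Y-linked genes Ddx3y and Kdm5d, which had at least 243 counts in each of the other 5 livers. The Y-linked gene Uty had 149 counts in that liver and 464 to 725 in the others. Whether the Hom livers were all of one sex is not stated, and a part of sex in the results was not tested. Calls of named genes that change without one liver, and the larger shifts in the counts of a list, are given beside the result they touch.

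The 10 markers did not move together. Clec4f, Timd4 and Cd163 were lower in the Hom livers, none of the 10 was called higher, and 7 did not pass the test (edgeR, adjusted p). Of all tested genes, 20.1% were called lower and 21.5% higher. The median log2 fold change of the 10 markers was −0.75, against −0.0018 for all tested genes, with 6 markers below 0 and 4 above. By the unadjusted p at the same threshold, 4 markers were lower and 2 were higher. In bulk tissue, fewer cells of a type and less RNA per cell cannot be told apart.

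**Figure D1:**
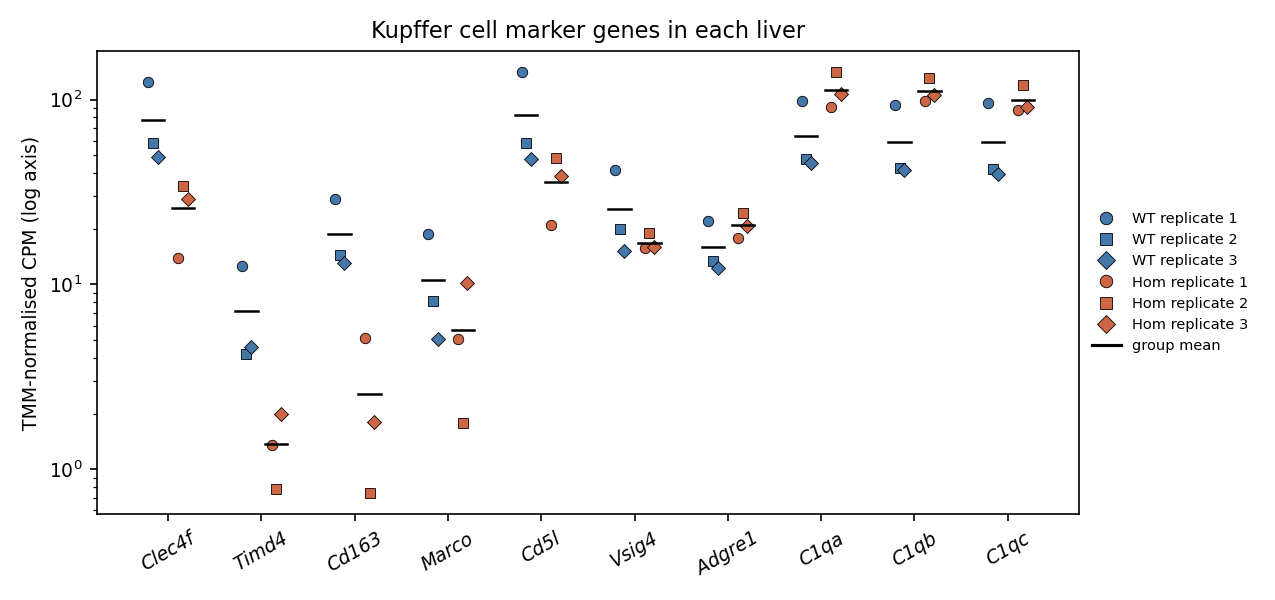
TMM-normalised CPM of the 10 Kupffer cell marker genes on a log axis, with one point per liver (WT blue, Hom orange, a symbol for each replicate) and a bar at each group mean. The Hom livers lay below the WT livers in Clec4f, Timd4 and Cd163, above them in C1qb, and overlapped them in the other 6 genes, and WT replicate 1 was the highest WT liver in every gene.

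Clec4f (NCBI Gene 51811), the C-type lectin that defines mouse Kupffer cells, was at 124.7, 58.2 and 49.1 CPM in the WT livers and at 14.0, 34.2 and 29.1 CPM in the Hom livers. All 3 Hom livers lay below all 3 WT livers, and Hom replicate 1 had less than the other Hom livers. The Hom mean was 33.3% of the WT mean, a log2 fold change of −1.59 (SE 0.44, adjusted p = 0.027). The adjusted p rose to 0.054 without WT replicate 1, to 0.054 without Hom replicate 1 and to 0.071 without Hom replicate 3, with log2 fold changes of −1.06, −1.29 and −1.68.

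Timd4 (NCBI Gene 276891) encodes a receptor for phosphatidylserine, the lipid that apoptotic cells expose. Its level was 12.6, 4.23 and 4.61 CPM in the WT livers, and 1.35, 0.783 and 1.98 CPM in the Hom livers. The groups did not overlap, and the Hom mean was 19.2% of the WT mean (log2 fold change −2.38, SE 0.54, adjusted p = 0.013). The Hom values rested on 29, 19 and 46 counts, for which exact Poisson 95% intervals were 19.4 to 41.6, 11.4 to 29.7 and 33.7 to 61.4 counts (these cover counting error only). Timd4 was called lower with each of the 6 livers left out in turn, with the smallest change, −1.69, without WT replicate 1.

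Cd163 (NCBI Gene 93671), the receptor that takes up haptoglobin-haemoglobin complexes, had the lowest Hom mean relative to WT among the 10 genes. It was at 28.9, 14.5 and 13.03 CPM in the WT livers and at 5.13, 0.742 and 1.81 CPM in the Hom livers. The groups did not overlap, and the Hom mean was 13.6% of the WT mean (log2 fold change −2.89, SE 0.65, adjusted p = 0.013). Hom replicate 1, the lowest Hom liver in Clec4f, was the highest in Cd163, so the Hom livers did not share one order over these genes. Without Hom replicate 1 the log2 fold change of Cd163 was −3.88 (adjusted p = 0.0046), and without Hom replicate 3 the call was lost at −2.69 (adjusted p = 0.054). The lowest count, 18 in Hom replicate 2, had an exact Poisson 95% interval of 10.7 to 28.4.

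For each of these 3 genes the exact permutation test of the 6 livers gave p = 0.1, the smallest possible. Hom livers lay below WT livers without overlap in 27% of all tested genes.

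Of the other endocytic and scavenging markers, none passed the test. Marco (NCBI Gene 17167), a scavenger receptor that binds bacteria, was at 18.7, 8.15 and 5.10 CPM in the WT livers and at 5.09, 1.77 and 10.2 CPM in the Hom livers. Its groups overlapped because Hom replicate 3 exceeded WT replicates 2 and 3, and the spread within each group was as large as the difference (log2 fold change −0.91, SE 0.67, 95% interval −2.50 to 0.69, adjusted p = 0.31). Cd5l (NCBI Gene 11801), which encodes the secreted macrophage protein AIM, was at 141.2, 58.6 and 47.5 CPM in the WT livers and at 21.0, 48.1 and 38.8 CPM in the Hom livers. Hom replicate 2 slightly exceeded WT replicate 3, and the log2 fold change was −1.20 (SE 0.47, 95% interval −2.30 to −0.094, adjusted p = 0.077). Without WT replicate 3 the adjusted p of Cd5l was 0.0497.

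Vsig4 (NCBI Gene 278180), a complement receptor of resident macrophages that binds C3b and iC3b, was at 41.7, 19.9 and 15.1 CPM in the WT livers and at 15.7, 19.0 and 15.9 CPM in the Hom livers. The Hom values fell within the range of the WT values, and only WT replicate 1 lay clearly above the rest. The log2 fold change was −0.60 (SE 0.35, 95% interval −1.44 to 0.23, adjusted p = 0.21), and it was −0.061 without WT replicate 1. On the log2(TPM + 1) scale Vsig4 changed sign, to 0.14.

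Adgre1 and the 3 C1q chains had positive log2 fold changes that did not pass the test. Adgre1 (NCBI Gene 13733), which encodes F4/80, was at 22.1, 13.4 and 12.3 CPM in the WT livers and at 17.9, 24.4 and 20.7 CPM in the Hom livers. WT replicate 1 exceeded Hom replicates 1 and 3, while WT replicates 2 and 3 were below every Hom liver (log2 fold change 0.40, SE 0.24, 95% interval −0.16 to 0.96, adjusted p = 0.21).

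C1qa, C1qb and C1qc (NCBI Gene 12259, 12260 and 12262) encode the A, B and C chains that assemble into C1q, the molecule that starts the classical complement pathway. They are neighbouring genes. C1qa was at 98.2, 47.5 and 45.7 CPM in the WT livers and at 91.1, 140.1 and 106.6 CPM in the Hom livers. C1qb was at 93.2, 42.8 and 41.7 CPM in the same WT livers and at 97.8, 130.9 and 105.2 CPM in the same Hom livers. C1qc was at 95.8, 41.9 and 39.4 CPM in the WT livers and at 87.6, 119.7 and 91.1 CPM in the Hom livers.

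In each of the 3 genes WT replicate 1 was near the Hom livers and WT replicates 2 and 3 were the lowest, and only in C1qb did every Hom liver exceed every WT liver. Hom livers lay above WT livers without overlap in 28.7% of all tested genes. The log2 fold changes were 0.82 for C1qa (SE 0.32, adjusted p = 0.077), 0.91 for C1qb (SE 0.32, adjusted p = 0.057) and 0.75 for C1qc (SE 0.35, adjusted p = 0.12). Without WT replicate 1 all 3 chains and Adgre1 were called higher, with log2 fold changes of 1.27, 1.39, 1.28 and 0.71 for C1qa, C1qb, C1qc and Adgre1 (adjusted p = 0.0049, 0.0018, 0.0027 and 0.016). With all 6 livers, DESeq2 called C1qa and C1qb higher (adjusted p = 0.021 and 0.0096), and limma on log2(TPM + 1) called all 4 of these genes higher. On that TPM scale 8368 of the 13805 tested genes were called higher, with a median over all genes of 0.50.

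**Figure D2:**
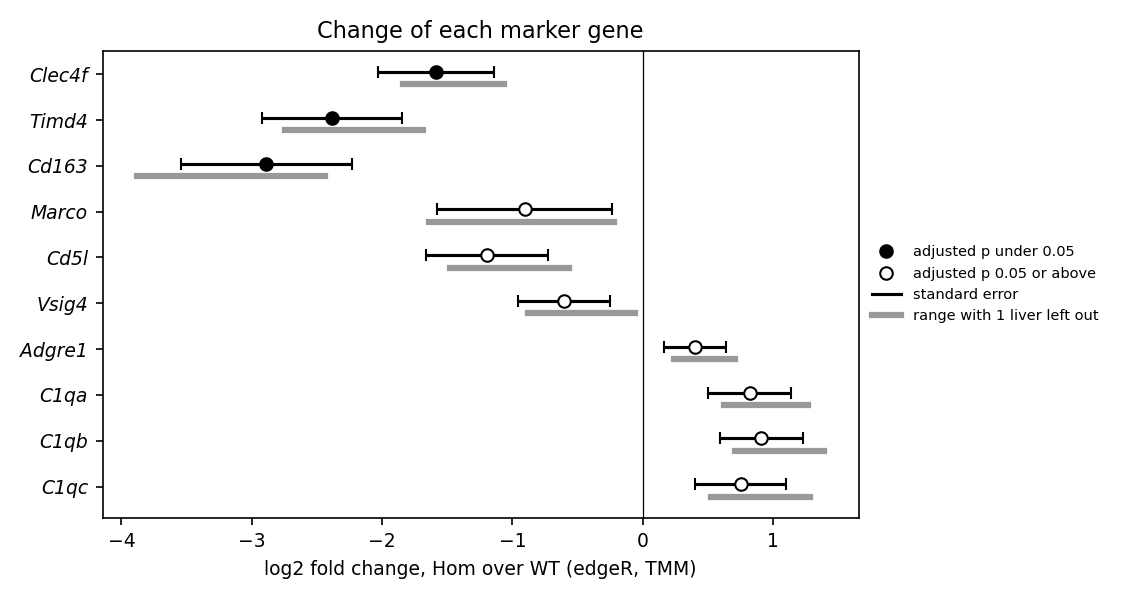
Log2 fold change of each marker gene, Hom over WT, from edgeR with TMM scaling, with its standard error (black line), a filled point where the adjusted p was under 0.05 and a grey bar for the range over the 6 fits that each left out one liver. Clec4f, Timd4 and Cd163 are filled and lie between −1.59 and −2.89, while Adgre1 and the C1q genes lie between 0.40 and 0.91 and are open.

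Windows upstream of the start site are shown for the 3 genes called lower and for 2 of the C1q chains, which moved together across the livers. The sequences are from RefSeq on GRCm38.p6, which held such a window for 8 of the 10 genes and none for Adgre1 and C1qa. They cover the 250 bases before the start, at chr6:83656117-83656366 on the minus strand for Clec4f, chr11:46810549-46810798 on the plus strand for Timd4, chr6:124304401-124304650 on the plus strand for Cd163, chr4:136886201-136886450 on the minus strand for C1qb and chr4:136892915-136893164 on the minus strand for C1qc. Capitals mark a match on either strand to GGAAGT, a form of the core that ETS factors such as PU.1 (encoded by Spi1) bind, or to AGGTCA, the hexamer recognised by nuclear receptors such as LXR alpha (encoded by Nr1h3) and RXR alpha (Rxra).
Clec4f: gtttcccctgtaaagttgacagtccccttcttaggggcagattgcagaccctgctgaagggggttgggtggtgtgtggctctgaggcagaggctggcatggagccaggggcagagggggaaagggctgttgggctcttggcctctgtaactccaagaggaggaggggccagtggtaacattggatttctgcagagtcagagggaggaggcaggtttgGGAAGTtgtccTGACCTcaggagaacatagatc
Timd4: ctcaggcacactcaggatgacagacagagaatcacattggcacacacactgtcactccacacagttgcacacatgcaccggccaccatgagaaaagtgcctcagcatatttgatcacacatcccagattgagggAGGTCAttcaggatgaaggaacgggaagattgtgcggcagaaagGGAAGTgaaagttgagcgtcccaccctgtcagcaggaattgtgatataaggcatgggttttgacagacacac
Cd163: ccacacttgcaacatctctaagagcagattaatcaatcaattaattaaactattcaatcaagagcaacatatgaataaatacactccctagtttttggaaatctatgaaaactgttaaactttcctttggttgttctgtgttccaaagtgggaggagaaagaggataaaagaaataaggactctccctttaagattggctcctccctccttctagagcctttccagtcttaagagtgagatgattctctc
C1qb: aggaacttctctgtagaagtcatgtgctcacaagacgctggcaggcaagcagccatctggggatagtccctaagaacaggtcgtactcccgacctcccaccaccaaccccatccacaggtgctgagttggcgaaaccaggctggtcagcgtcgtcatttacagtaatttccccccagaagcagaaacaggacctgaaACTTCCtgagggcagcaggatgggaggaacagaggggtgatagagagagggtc
C1qc: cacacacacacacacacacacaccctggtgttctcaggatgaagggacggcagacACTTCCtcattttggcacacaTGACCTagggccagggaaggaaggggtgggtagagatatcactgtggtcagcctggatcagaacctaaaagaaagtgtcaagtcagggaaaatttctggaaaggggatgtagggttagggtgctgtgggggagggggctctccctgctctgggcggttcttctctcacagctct

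The Clec4f window held GGAAGT from position −33 and, on the opposite strand, AGGTCA from position −22, counted from the start site. The Timd4 window held GGAAGT from position −72 and AGGTCA from position −116. C1qc held both motifs on the opposite strand, from positions −195 and −174, and C1qb held GGAAGT alone on the opposite strand, from position −53. In the Cd163 window neither string occurred, and of the 3 windows not printed Vsig4 held GGAAGT while Marco and Cd5l held neither. No 2 matches overlapped. GGAAGT occurred in 19.7% and AGGTCA in 14.0% of the 32851 mouse windows of this length, and the motifs were chosen after the values were seen. A match is a description of the letters and not a bound site, and genes called lower and genes not called both had such matches.

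Per gene length, the 3 C1q chains were the highest of the 10 genes in both groups. In the WT livers the mean FPKM was 53.9 ± 29.3 (SD, n = 3) for C1qa, 51.3 ± 31.6 for C1qc and 49.1 ± 28.1 for C1qb, and these neighbours in the order did not differ beyond their spread. Cd5l followed with 36.4 ± 25.3 FPKM and Clec4f with 28.8 ± 17.5 FPKM, and Vsig4 had 16.2 ± 10.1 FPKM. Marco, Adgre1, Timd4 and Cd163 were close together at 4.98, 4.51, 4.02 and 3.85 FPKM.

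In the Hom livers the C1q chains were again first, at 128.9 ± 36.1 FPKM for C1qa, 124.3 ± 26.6 FPKM for C1qb and 116.2 ± 27.0 FPKM for C1qc. The gap to the next gene was wider than in WT, with the C1q means higher and Cd5l lower in FPKM. Cd5l was at 21.6 ± 9.32 FPKM, Vsig4 at 14.3 ± 2.37 FPKM and Clec4f at 13.1 ± 5.94 FPKM. Timd4 and Cd163 were last, at 0.843 ± 0.310 and 0.673 ± 0.560 FPKM, below Adgre1 (7.92 ± 1.60 FPKM) and Marco (3.54 ± 2.72 FPKM). FPKM does not carry the TMM factors, so differences between the groups in the level of a gene were read from CPM. The C1q chains made up 59.9%, 60.5% and 64.3% of the summed FPKM of the 10 genes in the WT livers, and 87.5%, 86.0% and 83.8% in the Hom livers. This share was similar in WT replicate 1 and the other WT livers, although its levels were higher.

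Because WT replicate 1 was high in the pan-macrophage genes, each marker was also divided by Csf1r, the receptor through which CSF1 and IL-34 keep macrophages alive, within the same liver. Csf1r itself was at 103.7, 44.3 and 39.1 CPM in the WT livers and at 76.3, 103.5 and 80.5 CPM in the Hom livers (log2 fold change 0.48, SE 0.36, adjusted p = 0.33). It was called higher without WT replicate 1 (log2 fold change 1.05, adjusted p = 0.0048). This ratio was chosen after the values were seen.

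The ratio of Clec4f to Csf1r, both in FPKM, was 1.96, 2.14 and 2.04 in the WT livers and 0.298, 0.537 and 0.589 in the Hom livers. WT replicate 1 no longer stood apart from the other WT livers, and the WT mean was 4.31 times the Hom mean. Cd5l relative to Csf1r was 2.62, 2.55 and 2.33 in the WT livers and 0.530, 0.895 and 0.927 in the Hom livers, again without overlap.

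Vsig4, whose CPM overlapped between the groups, had ratios to Csf1r of 1.11, 1.24 and 1.07 in the WT livers and 0.568, 0.507 and 0.544 in the Hom livers. The ratio of Timd4 fell from a WT mean of 0.273 ± 0.031 (SD, n = 3) to a Hom mean of 0.0335 ± 0.0155, and that of Cd163 from 0.282 ± 0.030 to 0.0288 ± 0.0278. Marco had ratios of 0.367, 0.376 and 0.265 in the WT livers and 0.136, 0.0351 and 0.259 in the Hom livers, so that its groups were separated by a margin smaller than the spread within either.

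In total 6 of the 10 markers had lower ratios to Csf1r in every Hom liver than in every WT liver, and 3, the C1q chains, had higher ones. Over all other tested genes, Hom livers lay below WT livers in 14.3% and above them in 9.16% by the same measure, taken from CPM. The C1q differences were small: mean ratios were 3.93 in WT and 4.78 in Hom for C1qa, 3.54 and 4.66 for C1qb, and 3.64 and 4.34 for C1qc. Adgre1 relative to Csf1r overlapped between groups, with a mean of 0.341 ± 0.060 in WT and 0.297 ± 0.017 in Hom (exact permutation p = 0.4), and each of the other 9 ratios had an exact permutation p of 0.1, the smallest possible.

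When the edgeR fit was scaled so that Csf1r was equal in all livers, Clec4f, Cd5l, Timd4 and Cd163 were called lower, against 7.78% of all tested genes. The count of markers called lower in that fit was 6 without WT replicate 1, 3 without WT replicate 2 or 3, and 2 without any one of the Hom replicates.

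**Figure D3:**
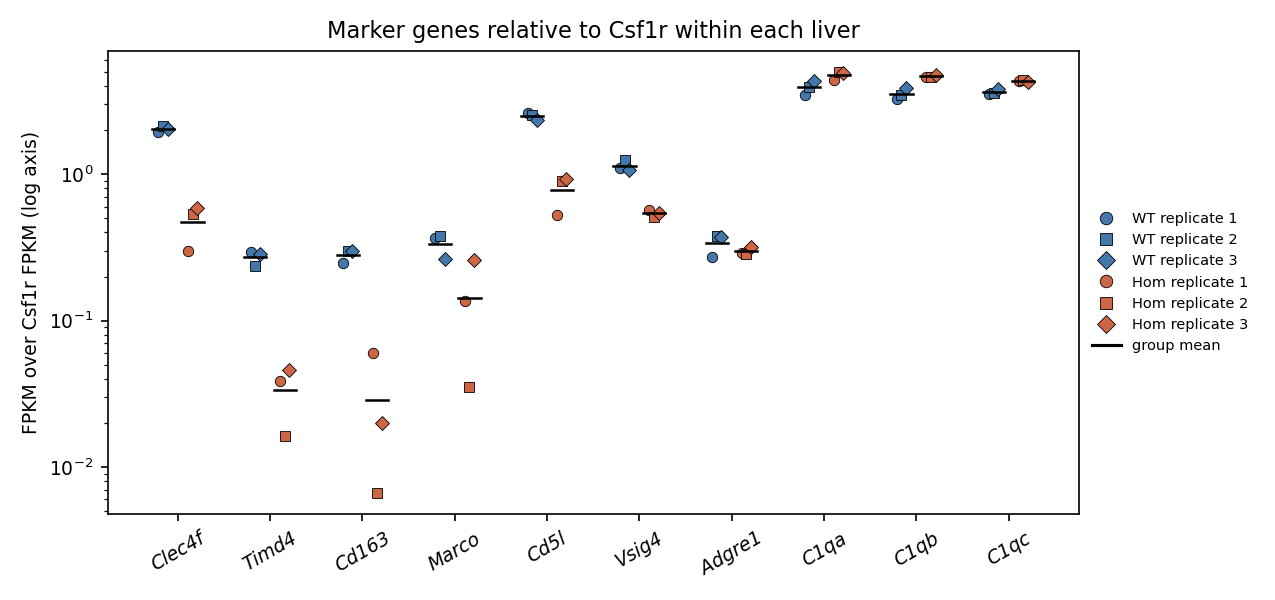
FPKM of each marker gene divided by the FPKM of Csf1r in the same liver, on a log axis, with one point per liver and a bar at each group mean. The WT livers lie close together in each gene, the Hom livers lie below them in 6 genes, and the C1q chains lie slightly above, with means of 3.54 to 3.93 in WT and 4.34 to 4.78 in Hom.

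The C1q chains kept nearly the same proportions to each other. C1qb over C1qa in FPKM was 0.930, 0.881 and 0.894 in the WT livers and 1.05, 0.915 and 0.966 in the Hom livers, and C1qc over C1qa was 0.930 ± 0.062 (SD, n = 3) in WT and 0.911 ± 0.064 in Hom. Relative to C1qa, by contrast, Clec4f was 0.523 ± 0.045 in WT and 0.0982 ± 0.0275 in Hom.

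The reference gene affected the reading of C1q. Relative to the summed FPKM of the 14 pan-macrophage genes, C1qa, C1qb and C1qc together were 0.790, 0.845 and 0.743 in the WT livers and 0.566, 0.577 and 0.546 in the Hom livers, which is lower in Hom and the opposite of their ratio to Csf1r. The 7 other markers together were 0.528, 0.551 and 0.413 relative to the same sum in the WT livers and 0.0810, 0.0941 and 0.106 in the Hom livers, lower in Hom on both references.

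The genes whose profile over the 6 livers was nearest to that of Clec4f were, in order, Cd5l, Tmem26, Folr2, Gclc and Tro. The root mean square difference of log2 CPM after centring each gene was 0.242, 0.252, 0.291, 0.295 and 0.330, over 12406 genes with a mean of at least 1 CPM. Cd5l is itself one of the 10 markers, and Folr2, a folate receptor of macrophages, is in the list of other Kupffer-enriched genes. For C1qa the nearest genes were C1qc (0.0797), Trpv2 (0.0825), C1qb (0.0850), Gpsm3 (0.0996) and Spi1 (0.105). These distances are descriptions over 6 livers.

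A further list of 15 genes enriched in Kupffer cells also moved in both directions. Fcna, Hpgd, Mrc1 and Ccl24 were lower, Cd207 was higher, and 10 did not pass the test, with a median log2 fold change of −0.12. The count called higher was 4 without WT replicate 1, and the count called lower was 2 without any one of the Hom replicates. Fcna, which encodes ficolin A, a lectin that activates complement, was at 60.3, 37.1 and 37.9 CPM in the WT livers and at 7.75, 9.61 and 10.9 CPM in the Hom livers (log2 fold change −2.26, SE 0.23, adjusted p = 7.6e-04). Every Hom liver was thus far below every WT liver in Fcna, and the call held with each liver left out in turn. Cd207, which encodes langerin, was at 3.19 ± 0.94 CPM in WT (SD, n = 3) and 9.19 ± 1.02 CPM in Hom (log2 fold change 1.52, adjusted p = 0.0035).

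Hpgd, a prostaglandin-degrading enzyme, averaged 118.6 CPM in WT and 53.1 CPM in Hom (log2 fold change −1.16, adjusted p = 0.0014), and was not called on the TPM scale (adjusted p = 0.055). The mannose receptor gene Mrc1 (log2 fold change −0.42, adjusted p = 0.032) was not called without any one of the Hom replicates and turned to 0.027 with library size alone and 0.20 on the TPM scale. Ccl24, a chemokine (log2 fold change −1.19, adjusted p = 0.040), was not called without WT replicate 1 or 2 or any one of the Hom replicates.

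General macrophage genes were examined beside the resident markers. Of 14 pan-macrophage genes, 9 were higher and none lower (none lower by the unadjusted p or DESeq2), with a median log2 fold change of 1.34. Limma on TPM also called none of them lower. It called 8368 of all tested genes higher and only 433 lower, so the absence of a lower call there says little. The summed level of the pan-macrophage genes was 253.5 to 550.0 CPM in the WT livers and 789.3 to 1094 CPM in the Hom livers. The count called higher rested on single livers, since it was 14 without WT replicate 1, 10 without Hom replicate 1, 4 without Hom replicate 3, and 3 without WT replicate 2, WT replicate 3 or Hom replicate 2. Cd14, a co-receptor for lipopolysaccharide, was at 6.15 ± 4.22 CPM in WT (SD, n = 3) and 62.3 ± 8.60 CPM in Hom (log2 fold change 3.33, adjusted p = 0.0017). Mpeg1, a pore-forming protein of macrophages, rose by 1.81 (adjusted p = 0.0027) and the lysosomal protease gene Ctss by 1.57 (adjusted p = 0.014) on the log2 scale, and the calls for these 3 genes held with each liver left out in turn.

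Of 12 genes of monocytes and lipid-associated macrophages, 7 were higher and none lower (none by the unadjusted p or DESeq2), with a median of 2.28. Limma on TPM also called none lower, which says little because it called only 433 of all tested genes lower. Cx3cr1, the fractalkine receptor of monocytes and recruited macrophages, was at 1.79, 0.385 and 1.23 CPM in the WT livers and at 31.3, 36.2 and 26.3 CPM in the Hom livers (log2 fold change 4.75, SE 0.39, adjusted p = 4.6e-04). Every Hom liver was far above every WT liver, and WT replicate 1 did not stand out on the scale of this difference. Ccr2, the receptor that draws monocytes from the bone marrow and blood, had a log2 fold change of 3.19 (adjusted p = 0.0011). Trem2, a lipid-sensing receptor, and Cd9 and Cd63, both tetraspanins, had changes of 3.31, 2.30 and 2.26 (adjusted p = 0.0020, 0.0018 and 2.8e-04). Spp1, which encodes osteopontin and is also a cholangiocyte gene, had a change of 3.78 (adjusted p = 3.7e-04). Ly6c2, Gpnmb, Lgals3, Chil3 and Fabp5 were not called. Of these, Chil3 and Fabp5 had negative log2 fold changes, −0.26 and −0.23 (adjusted p = 0.87 and 0.78).

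The resident markers were lower or not called in livers in which 7 of 12 monocyte and lipid-associated macrophage genes were higher. A whole-liver library does not assign either set of transcripts to cells. Markers of other liver cell types also moved with the groups, and those of bile duct and stellate cells are given under other observations. Of 10 sinusoidal endothelial genes, which mark the cells that Kupffer cells attach to, 7 were lower and none higher (none higher by the unadjusted p or DESeq2, 1 by limma on TPM), with a median of −1.15, and their summed level was 273.8 to 372.1 CPM in WT and 135.4 to 158.7 CPM in Hom. Clec4g, Dnase1l3, Oit3, Kdr and Gpr182 had log2 fold changes of −2.13, −2.03, −1.85, −1.48 and −1.43 (adjusted p = 5.5e-04, 0.0010, 5.0e-04, 9.0e-04 and 0.0021). Of 9 tested hepatocyte genes 5 were lower, with a median of −0.67, among them Ttr (−1.85, adjusted p = 4.9e-04) and Cyp2e1 (−2.95, adjusted p = 0.0041), and the count was 3 without Hom replicate 3. The part of these shifts in the levels of the Kupffer cell markers was not tested.

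**Figure D4:**
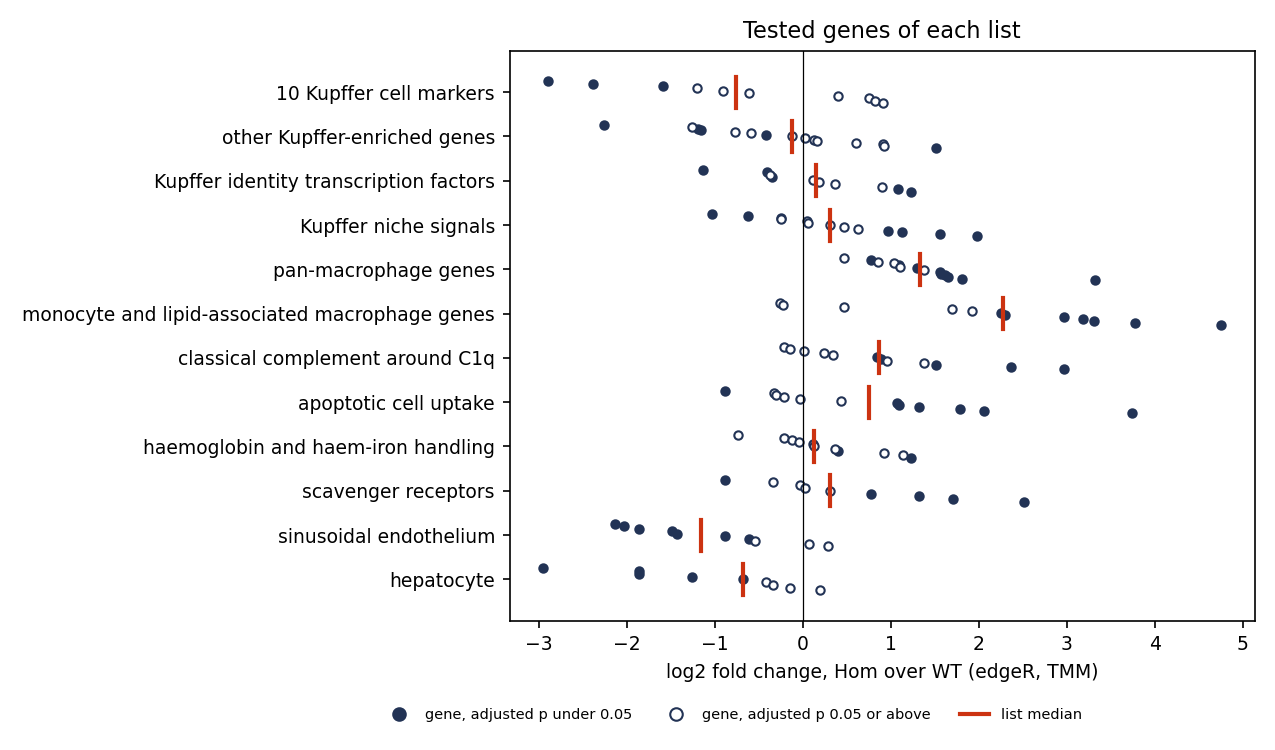
Log2 fold change, Hom over WT, of each tested gene of the 10 Kupffer cell markers and of 11 related lists, filled where the adjusted p was under 0.05, with a red bar at the median of each list. The Kupffer cell markers have a median of −0.75, while the pan-macrophage and the monocyte and lipid-associated macrophage lists have medians of 1.34 and 2.28.

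Transcription factors that set Kupffer cell identity were also mixed, with 2 of 10 higher, 3 lower and a median of 0.15. Over all tested genes, 21.5% were called higher and 20.1% lower. Irf8 and Zeb2 were higher, with log2 fold changes of 1.23 and 1.09 (adjusted p = 0.016 and 0.022). Nr1h3, which encodes the nuclear receptor LXR alpha and is also made by hepatocytes, was called lower at −0.35 (adjusted p = 0.025) but turned to 0.10 with library size alone and 0.27 on the TPM scale. Its partner Rxra, called lower at −0.41 (adjusted p = 0.018), turned to 0.047 and 0.21 under the same settings. Spi1 was at 0.90 (adjusted p = 0.090) and was called higher without WT replicate 1 (1.47, adjusted p = 0.0038), by DESeq2 (adjusted p = 0.037), with library size alone (adjusted p = 0.033) and by limma on TPM (adjusted p = 0.016). The last 2 settings called 6574 and 8368 of the 13805 tested genes higher. The calls for Irf8, Zeb2, Nr1h3 and Rxra were each lost without Hom replicate 2, and some also without WT replicate 1 (Nr1h3), WT replicate 2 (Irf8, Rxra, Zeb2), WT replicate 3 (Rxra, Zeb2, Nr1h3) or Hom replicate 3 (Rxra, Zeb2, Nr1h3). The count called higher was 5 without WT replicate 1 and 0 without WT replicate 2 or Hom replicate 2. It was 1 without WT replicate 3 or Hom replicate 3, and the count called lower was 1 without WT replicate 2 or 3 and 0 without Hom replicate 2 or 3.

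The niche list holds the signals that neighbouring cells give to Kupffer cells and their receptors. Of its 13 tested genes 4 were higher and 2 lower, with a median of 0.31, beside 21.5% higher and 20.1% lower over all tested genes. Csf1, the growth factor of macrophages, was at 14.7, 10.5 and 7.68 CPM in the WT livers and at 44.2, 46.9 and 38.9 CPM in the Hom livers (log2 fold change 1.98, SE 0.22, adjusted p = 0.0011). All Hom livers were well above all WT livers. The TGF-beta receptor genes Tgfbr2 and Tgfbr1 were higher by 1.56 and 1.13 (adjusted p = 2.8e-04 and 6.0e-04) and Acvrl1, a receptor for BMP9, by 0.97 (adjusted p = 0.0090). Gdf2, which encodes BMP9, was lower, with −1.03 (adjusted p = 0.0042), and not called on the TPM scale. The Notch ligand gene Dll4 was called lower at −0.62 (adjusted p = 0.044), was not called without any one liver other than WT replicate 3, and turned to 0.049 on the TPM scale. With all 6 livers Dll4 was also not called by DESeq2 (adjusted p = 0.057). The same held for library size alone, upper-quartile factors, no filter and the replicate block (adjusted p = 0.56, 0.073, 0.062 and 0.11). The count called lower was 4 without WT replicate 3 and 1 without WT replicate 1, WT replicate 2, Hom replicate 2 or Hom replicate 3. Bmp10 had 16, 18 and 6 counts in the WT livers and 3, 0 and 0 counts in the Hom livers, and was not tested.

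The partners of C1q were examined as 12 genes of the classical pathway and its receptors. Of these, 5 were higher and none lower (again none by the unadjusted p or DESeq2), with a median of 0.87. None was lower by limma on TPM, which says little because only 433 of all tested genes were called lower there. C3ar1 and C5ar1, the receptors for C3a and C5a, had log2 fold changes of 2.37 and 1.51 (adjusted p = 0.0016 and 0.0067), and Itgax, a subunit of complement receptor 4, had 2.97 (adjusted p = 0.0027). C3, which feeds the ligands of Vsig4, had 0.89 (adjusted p = 0.029) and was not called without WT replicate 2, WT replicate 3 or Hom replicate 3.

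Genes for the uptake of apoptotic cells, the process in which Timd4 takes part, gave 6 higher and 1 lower of 12 tested, with a median of 0.75. Mfge8, a bridge between phosphatidylserine and integrins, was at 20.7, 16.5 and 14.1 CPM in the WT livers and at 217.7, 237.2 and 234.2 CPM in the Hom livers (log2 fold change 3.75, SE 0.15, adjusted p = 9.4e-05). Timd4 and Mfge8, whose products bind the same lipid, were the lowest and the highest in log2 fold change when Timd4 is set beside this list. Gas6 and Pros1, ligands of the TAM receptors, had 2.07 and 1.07 (adjusted p = 8.1e-04 and 0.0013), Elmo1, which acts in engulfment, had 1.79 (adjusted p = 6.0e-04) and the scavenger receptor gene Cd36 had 1.32 (adjusted p = 5.3e-04). Stab2, an endothelial receptor for phosphatidylserine, was lower, with −0.88 (adjusted p = 0.0074), and not called with library size alone or on the TPM scale. Havcr1, a relative of Timd4, and Adgrb1 had at most 1 count in any liver and were not tested.

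Around Cd163, 2 of 11 genes of haemoglobin and haem-iron handling were higher and none lower, with a median of 0.12. By the unadjusted p and by DESeq2, 1 was lower. By limma on TPM none was lower, which says little because only 433 of all tested genes were called lower there. The count called higher was 5 without WT replicate 1 and 1 without any one of the other livers, and the count called lower was 1 without Hom replicate 2. Slc48a1, a haem transporter, was higher by 0.40 (SE 0.084, adjusted p = 0.0093). Hp, the haptoglobin gene, had a log2 fold change of 1.23 (adjusted p = 0.048) that was not called without any one liver other than WT replicate 1. The haem oxygenase gene Hmox1 was at 32.3, 22.1 and 23.3 CPM in the WT livers and at 27.6, 23.5 and 20.3 CPM in the Hom livers, and the iron exporter gene Slc40a1 at 92.7 ± 33.3 CPM (SD, n = 3) in WT and 101.1 ± 23.8 CPM in Hom. Neither of them passed the test (adjusted p = 0.60 and 0.75). No gene of this list had a Hom level as low relative to WT as Cd163.

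Among the scavenger receptors other than Marco and Cd163, 4 of 9 tested genes were higher and 1, Stab2, was lower, with a median of 0.31. Scara3 had a log2 fold change of 2.51 (SE 0.25, adjusted p = 7.5e-04), and Scara5, a ferritin receptor, had 1.71 (adjusted p = 0.029) and was not called without WT replicate 3 or any one of the Hom replicates. The count called higher was 2 without WT replicate 3, Hom replicate 2 or Hom replicate 3. Olr1 had at most 13 counts in any liver and was not tested.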

How the data were processed

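Liver RNA from 3 WT and 3 Hom mice was extracted with Trizol, and BGI Genomics sequenced it (DNBSEQ). The submitters' processing notes name HISAT2 2.0.4, Bowtie2 2.2.5, RSEM 1.2.12 and the build mm9, without their order. The authors deposited, for each liver and gene, an expected count (an estimated count as RSEM gives it, not scaled between samples, of which 65.9% were whole numbers). The authors also deposited FPKM, which divides by gene length and library size, and TPM values made from the same data. The 4 columns of group means were not used: for all 17975 genes, within 0.01, their names are crossed between the groups. Strandedness is not given in the sources used here.

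Rounded counts entered edgeR 4.0.16 under R 4.3.3 (filterByExpr, TMM, glmQLFit and glmQLFTest, Hom against WT, no covariate), with Benjamini-Hochberg adjustment over 13805 genes and no minimum fold change. The F statistic gave the standard errors, and the t distribution with the degrees of freedom of that fit gave the 95% intervals. FPKM served for levels and ratios within a liver, which were then compared between the groups, and for the alternative of the ratio of mean FPKM. On simulated counts for 13130 genes, edgeR called 54.6% of the 194 tested genes given a log2 fold change of 1 and 0.077% of the others. No pair of libraries within a group agreed within sampling noise (chi-square over degrees of freedom at least 23.8). The replicate numbers of WT and Hom belong to different mice, and the correlations of their deviations were −0.11, −0.056 and −0.049, so the numbers do not pair the livers.

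The 10 genes and all gene lists were chosen with earlier results of these data known. The genes named were Nek7, the 10 markers, from each other list up to 6 genes with the smallest adjusted p and up to 3 further genes with the highest mean CPM, genes of a list with too few counts to test, and the 5 nearest profiles of Clec4f and of C1qa. Ddx3y, Kdm5d, Uty, Retnlg, Ly6c2, Chil3 and Gpnmb were named after their values were seen. The hepatocyte gene Tf was not analysed here, and some genes counted in the lists are not reported by name. Alternatives were DESeq2 1.42.0, other scaling (library size alone, upper-quartile or median-ratio factors), a stricter filter (10 or more counts per liver) or none, a replicate block, limma 3.58.1 on log2(TPM + 1), the ratio of mean FPKM for the 10 markers, and each liver left out in turn. The scaling to Csf1r was added after the data were seen. Depth was nearly equal, so counting error limits mainly genes with few counts.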

Additional observations from a re-analysis of the deposited data

How the results depend on the processing

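Of 140 comparisons of a marker gene with an alternative that gave a p, 115 kept the direction and the side of the threshold. The count of markers called higher, 0 with TMM factors and edgeR, was 2 with DESeq2, 4 with library size alone, 1 each with upper-quartile factors and with the filter of 10 counts per liver, and 4 with limma on log2(TPM + 1). With one liver left out it ranged from 0 to 4, and it was 4 without WT replicate 1. The count called lower, 3, ranged from 1 to 4, and it was 1 (Timd4) without Hom replicate 3. With the replicate block it was 2, since Clec4f had an adjusted p of 0.080, and no other call among the 10 markers changed. The cause was not tested. Timd4 was called lower in 14 of 14 alternatives, Cd163 in 13 and Clec4f in 8, while C1qb was called higher in 6, C1qa in 4, and C1qc and Adgre1 in 3. Relative to Csf1r, the count called lower was 4, with a range from 2 to 6 when one liver was left out. Over all genes, 2974 were called higher and 2780 lower, 51.7% of calls higher. This became 6574 and 642 (91.1% higher) with library size alone, 8368 and 433 (95.1%) on the TPM scale, and 62.8% with upper-quartile factors. The median over all genes shifted to 0.45, 0.50 and 0.089 under them (log2). Of the lists, the pan-macrophage count called higher, 9, was 13 with DESeq2 or library size alone, 14 on the TPM scale and 4 with the replicate block, and the complement count, 5, was 8, 10 and 12 with DESeq2, library size alone and TPM. On the TPM scale 8 niche genes were called higher and none lower, and the counts of the other Kupffer-enriched genes were 4 higher and 1 lower, with 3 higher by DESeq2. With the replicate block the counts over all genes were 2383 and 2214, and with one liver left out the count called lower ranged from 1767 to 2750. The sign reversed for Vsig4 (0.14 on the TPM scale), Mrc1 (0.027 with library size alone, 0.20 TPM), Hmox1 (0.31 and 0.49), Rxra (0.047 and 0.21), Nr1h3 (0.10 and 0.27) and Dll4 (0.049 TPM). With one liver left out, Slc40a1 ranged from −0.079 to 0.44 and Hmox1 from −0.24 to 0.063. Counting error limits Timd4 and Cd163 in the Hom livers, where counts were as low as 19 and 18.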

Other observations

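Bile duct and stellate cell genes moved in the same livers. All 6 cholangiocyte genes were higher in Hom, with a median log2 fold change of 3.22 and a summed level of 42.8 to 76.1 CPM in the WT livers and 584.4 to 820.4 CPM in the Hom livers. Besides Spp1, they were the keratin genes Krt7 (2.63, adjusted p = 3.7e-04) and Krt19 (3.26, adjusted p = 8.1e-04), the adhesion gene Epcam (3.18, adjusted p = 7.9e-04), the chloride channel gene Cftr (4.20, adjusted p = 9.1e-04) and the transcription factor gene Sox9 (1.00, adjusted p = 0.015, and 0.057 without Hom replicate 3). Of 8 stellate cell genes 4 were higher and 1 lower, with a median of 0.86. The collagen genes Col1a1 and Col3a1 had log2 fold changes of 3.32 and 2.29 (adjusted p = 2.0e-04 and 6.0e-04) and the receptor gene Pdgfrb had 1.72 (adjusted p = 2.1e-04). Acta2, which marks activated stellate cells, had 1.30 (adjusted p = 0.029) and was not called without WT replicate 2 or any one of the Hom replicates. Reln, a gene of quiescent stellate cells, was the lower one, with −1.55 (adjusted p = 0.0018).

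The remaining leukocyte lists gave few calls. None of 7 neutrophil genes was called in either direction by edgeR, the unadjusted p, DESeq2 or limma on TPM with all livers. For limma on TPM this says little about lower levels, because only 433 of all tested genes were called lower there. Without WT replicate 1, 3 neutrophil genes were called higher by edgeR. None of 6 tested dendritic cell genes was called by edgeR, while 2 were higher by the unadjusted p, 1 by DESeq2, 3 by limma on TPM, 2 without WT replicate 1 and 3 without Hom replicate 1. Ccr7 had at most 20 counts in any liver and was not tested. Of 5 tested lymphocyte genes (Cd3d and Ms4a1 had at most 22 counts and were not tested), Cd3e was called higher (log2 fold change 1.74, adjusted p = 0.038), from 0.435 ± 0.160 CPM in WT (SD, n = 3) to 1.48 ± 0.77 CPM in Hom, with overlapping groups, and 2 of the 5 were called higher without WT replicate 1 or Hom replicate 1. Cd3e was not called without WT replicate 2, WT replicate 3, Hom replicate 2 or Hom replicate 3. Summed levels of the dendritic cell genes, 9.95 to 13.7 CPM in WT and 10.3 to 18.5 CPM in Hom, overlapped between the groups.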
